A study of Mus musculus with 6 samples.

Results

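The genes described here encode the working parts of the lysosome: the cathepsins, which are its proteases, the proteins that line its membrane, and the proton pump that acidifies it. They were chosen by symbol, as Cts genes with a suffix of 1 or 2 characters, Lamp1 to Lamp5, Scarb2, and every gene whose symbol starts with Atp6v0, Atp6v1, Atp6ap1 or Atp6ap2. Of 22180 genes measured, 52 met this rule: 22 cathepsins, 5 membrane genes and 25 genes with a pump symbol, called pump genes here. The tissue was the outer wall of the eye at an age of 12 months, dissected as 1 piece: the retinal pigment epithelium (RPE), the choroid behind it and the sclera. The 3 samples of one group came from heterozygous 5XFAD mice, which carry mutant human amyloid precursor protein and presenilin transgenes driven by a Thy1 promoter, active mainly in neurons, and the 3 of the other from non-transgenic wild-type littermates. No treatment was given to either group.

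Cathepsins are made as inactive precursors, sorted to the lysosome and activated there by low pH, and that pH is maintained by the vacuolar ATPase. In this pump the cytosolic V1 sector hydrolyses ATP and the membrane V0 sector carries protons inward. The RPE depends on it heavily, because RPE cells engulf and digest the shed tips of photoreceptor outer segments every day, and cathepsin D is the protease best known for cleaving rhodopsin there. Macrophages and microglia are the other professional digesters of the outer eye, and cathepsin S is typical of them.

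Many lysosomal genes share a promoter element, named CLEAR, to which the transcription factor TFEB binds, and its palindromic core is TCACGTGA. RefSeq promoter sequences (GRCm38.p6, 250 bases before to 50 after each start site) were at hand for 41 of the 52 genes, and the core was found in 5 of them, or 12.2%. It was found in 1.12% of all 27025 genes with such an entry, and in 320 of 32851 promoters (0.974%). The core reads the same on both strands and contains the shorter E-box CACGTG, which 9 of the 41 genes held (22.0%) against 8.09% of all genes. The windows are shown to place the element in these genes, each 30 bases long and with the core in capitals:
Ctsa (chr2:164833758-164833787, plus strand): tgTCACGTGAtgcagatgcTCACGTGAcca
Ctsd (chr7:142387908-142387937, minus strand): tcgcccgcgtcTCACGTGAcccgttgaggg
Atp6v0d1 (chr8:105566050-105566079, minus strand): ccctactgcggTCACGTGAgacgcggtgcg
Atp6v1a (chr16:44139373-44139402, minus strand): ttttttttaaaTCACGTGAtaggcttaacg
Atp6v0e (chr17:26676387-26676416, plus strand): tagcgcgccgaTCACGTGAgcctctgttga

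The core started 99 bases before the start site in Ctsd and 132 bases before it in Atp6v1a. Ctsa held 2 copies in all, with its start site between them. The promoters of Ctsl, Ctsz, Ctss, Atp6v1e1 and Atp6v1d in the table did not hold these letters, although that of Ctsl held the E-box. The 5 genes with the core did not move as a group: their log2 differences between 5XFAD and wild type were 0.21 for Ctsa, -0.004 for Ctsd, -0.05 for Atp6v0d1, -0.06 for Atp6v1a and -0.14 for Atp6v0e.

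The arrays gave 1 log2 intensity per probe set, and a level here is that signal. Median signals per array lay between 5.59 and 5.71. Olfactory and vomeronasal receptor genes, which the eye wall is not known to use, served as a reference for background: the 95th percentile of 1394 such genes was 5.62, and 34 of the 52 lysosomal genes had a mean above it. The tissue label was checked against 12 RPE markers, of which 11 lay above the reference. Their mean was 10.52, 10.48 and 10.66 in the 5XFAD arrays and 10.90, 11.02 and 10.97 in the wild-type arrays, and 11 of 12 had a lower signal in 5XFAD. At an unadjusted limma p under 0.05, 10 of the 12 were lower (83.3%, against 3.39% of all genes), and 0 passed the adjusted limma threshold. Marker means of tissue from outside this layer were higher in 5XFAD. Of 7 surface epithelium markers, mostly keratins, all were positive and 4 passed the adjusted limma threshold, with a mean of 6.28 to 7.14 in the 5XFAD arrays and 4.81 to 4.95 in wild type. These 4 are among the 5 genes that passed of all those measured, and 4 of the 7 lay above the reference. The mean of 8 skeletal muscle markers was 6.33 to 7.77 in 5XFAD and 5.65 to 7.25 in wild type, so the groups overlapped. Of the 8 markers 7 were positive, 7 lay above the reference and 0 passed the adjusted limma threshold. At an unadjusted limma p under 0.05, 3 were higher (37.5%, against 2.89% of all genes). The part of either tissue in the lysosomal signals was not tested. The labels do not say whether each sample came from its own animal, so p-values reflect how these samples vary, which may be technical in part. In a mixed tissue, fewer cells of a type and less RNA per cell cannot be told apart.

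No lysosomal gene differed between the genotypes past the adjusted threshold. Of the 52 genes 0 passed (limma, Benjamini-Hochberg adjusted p under 0.05, lowest 0.60 for Ctsl), where 0.0225% of all genes did. At an unadjusted limma p under 0.05 there were 4 (7.69%, against 6.28% of all genes): Ctsl, Ctsz and Atp6v0d2 were higher in 5XFAD, where the share of all genes called higher was 2.89%, and Atp6v1e1 was lower, where it was 3.39%. The count of 3 higher genes was 1 without 5XFAD replicate 1, without 5XFAD replicate 2 or without wild type replicate 2. The lower gene was no longer called without 5XFAD replicate 2, and the count was also 0 when either replicate 1 or replicate 2 of wild type was left out. The groups did not overlap in 8 genes (15.4%, against 11.3% of all genes): Ctsl, Ctsz, Ctss and Scarb2 were higher in all 3 5XFAD arrays (4.72% of all genes were), and Atp6v1e1, Atp6v1d, Atp6v0b and Cts6 lower (6.62%). These shares lie near those of all genes.

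**Figure D1:**
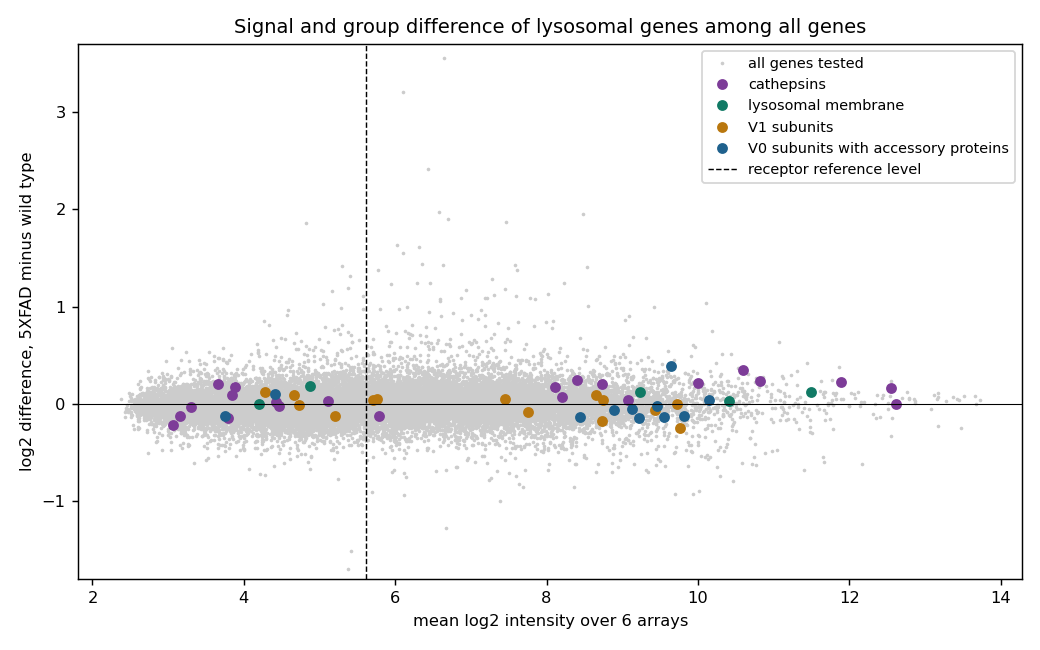
Log2 difference (5XFAD minus wild type, vertical axis) against mean log2 intensity over 6 arrays (horizontal axis) for all genes tested (grey) and for the lysosomal genes by class (colours), with the receptor reference level as a dashed line. The lysosomal genes sit between -0.25 and 0.38, inside the cloud of all genes, and 34 lie to the right of the reference.

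Among the cathepsins, the largest positive differences were in cysteine proteases, and the aspartic protease Ctsd had nearly the same mean in both groups. Ctsl, a broadly expressed endopeptidase of the lysosome, gave 10.67, 10.90 and 10.74 in the 5XFAD arrays and 10.46, 10.50 and 10.31 in the wild-type arrays. All 3 5XFAD values lay above all wild-type values, by 0.18 between the nearest arrays. The difference was 0.35 ± 0.11 (log2, ± SE, n = 3 arrays per group as everywhere here), a 1.27-fold level that did not pass (limma, Benjamini-Hochberg adjusted p = 0.60). Its unadjusted limma p was under 0.05 in all 14 alternative analyses, from 0.0082 to 0.041. Some of these left its values unchanged: Ctsl has 1 probe set to average, and leaving out dim genes did not alter it. The other 3 genes at an unadjusted p under 0.05 kept it in fewer of the 14: Ctsz in 7 (0.032 to 0.115), Atp6v0d2 in 10 (0.0082 to 0.127) and Atp6v1e1 in 9 (0.023 to 0.098).

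Ctsz, a carboxypeptidase of the same family, gave 10.97, 10.91 and 10.94 against 10.74, 10.62 and 10.77. The 5XFAD arrays were close to each other and all higher, with a difference of 0.23 ± 0.10 (limma, Benjamini-Hochberg adjusted p = 0.76).

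Ctss, the myeloid endopeptidase that trims the invariant chain of MHC class II, gave 12.13, 11.92 and 11.94 in 5XFAD and 11.84, 11.66 and 11.82 in wild type. The groups did not overlap, although the lowest 5XFAD array and the highest wild-type array were close. The difference of 0.22 ± 0.11 did not pass (limma, Benjamini-Hochberg adjusted p = 0.82), and its 95% interval ran from -0.02 to 0.47. Ctss signal was highest in 5XFAD replicate 1. The mean of 15 macrophage markers was 8.68, 8.50 and 8.25 in 5XFAD replicates 1, 2 and 3 and 8.37, 8.33 and 8.29 in wild type, with 13 of 15 markers positive and all 15 above the reference. The median difference of these markers was 0.16. The lowest was that of the receptor gene Csf1r, at -0.21 ± 0.10, and the highest that of the Fc receptor adaptor gene Fcer1g, at 0.51 ± 0.16. Neither passed the threshold (limma, Benjamini-Hochberg adjusted p = 0.84 and 0.59). At an unadjusted limma p under 0.05, 3 of the 15 were higher (20%, against 2.89% of all genes): Fcer1g, Itgam (0.25 ± 0.10) and Tyrobp (0.29 ± 0.12). The groups did not overlap for 3 markers (20%, against 11.3% of all genes), 2 of them higher and 1, Csf1r, lower. Cx3cr1 was at 0.001 ± 0.098 and Mrc1 at -0.01 ± 0.12. The part of macrophage content in the cathepsin signals was not tested.

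Ctsd gave 12.62, 12.56 and 12.66 in 5XFAD and 12.54, 12.64 and 12.67 in wild type, and the arrays of the groups were interleaved. The difference was -0.004 ± 0.096, with a 95% interval from -0.22 to 0.21 (limma, Benjamini-Hochberg adjusted p = 0.998). The interval is wide enough to hold a difference nearly as large as that of Ctss, so equal levels were not shown. The RPE marker mean of these arrays was lower by 0.41 in 5XFAD, and the relation of Ctsd to that shift was not tested. The ratio of Ctss to Ctsd signal was higher in 5XFAD by 0.23 on the log2 scale, with overlapping arrays (exact two-sided permutation p = 0.2, where the smallest p that 3 against 3 arrays allow is 0.1). The 2 genes were therefore not shown to differ in their response.

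**Figure D2:**
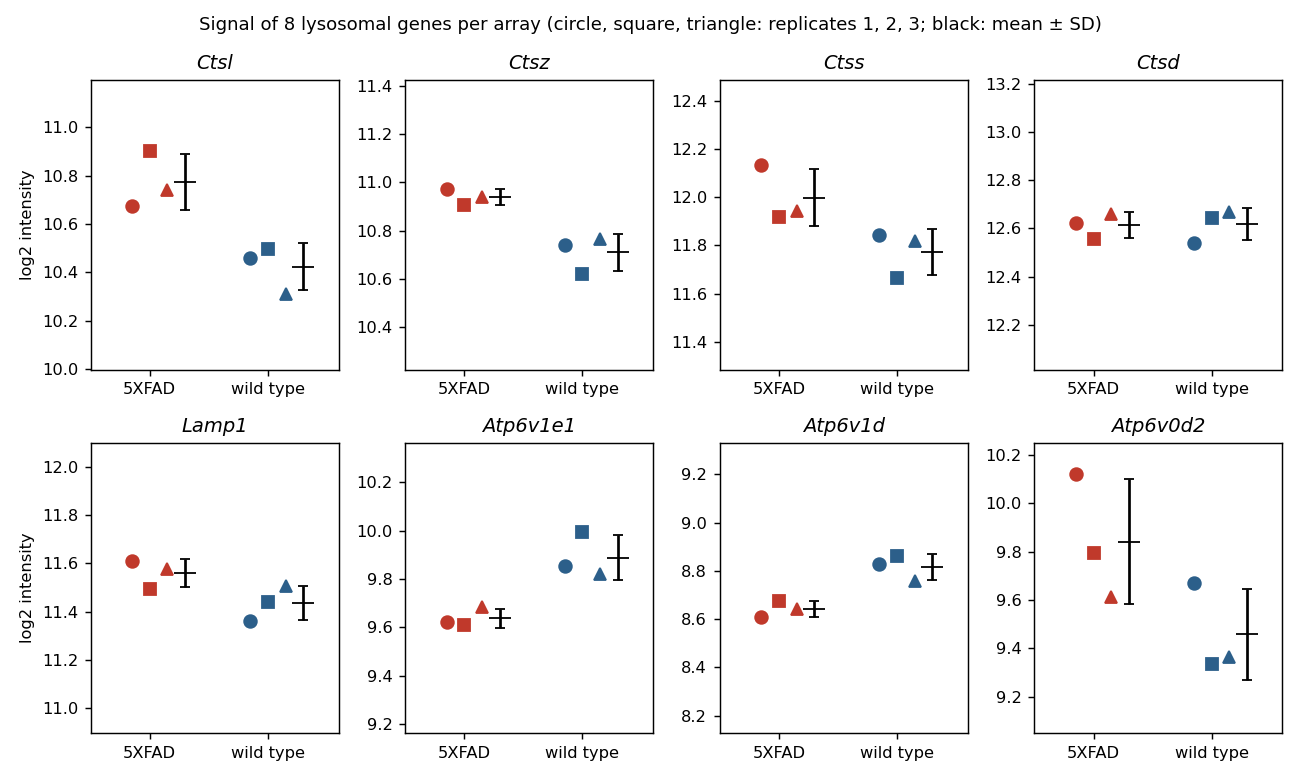
Log2 intensity (vertical axis, the same span of 1.2 in each panel) of 8 genes in the 3 5XFAD arrays (red) and the 3 wild-type arrays (blue), with replicates 1, 2 and 3 as circle, square and triangle and mean ± SD in black. Ctsl, Ctsz and Ctss are apart and higher in 5XFAD, Atp6v1e1 and Atp6v1d are apart and lower, and Ctsd, Lamp1 and Atp6v0d2 overlap.

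The remaining cysteine cathepsins were not called at an unadjusted p under 0.05. Taken by protease type, a grouping made with the values known, the 9 cysteine cathepsins other than the lymphocyte gene Ctsw and the placental genes all had a positive difference, from 0.04 to 0.35 with a median of 0.20. Among all genes 47.2% were positive and the median was -0.01. Among genes above the reference level, as all 9 are, 50.3% were positive and the median was 0.001. The genes left out went partly the other way, with Ctsw at -0.12 ± 0.11 and 5 of the 8 placental genes negative. Besides Ctsl, Ctsz and Ctss the 9 held Ctso (0.24 ± 0.13), Ctsh (0.20 ± 0.14), an aminopeptidase, and Ctsk (0.18 ± 0.22), a collagenase of osteoclasts and fibroblasts. Also among the 9 were Ctsb (0.16 ± 0.13), Ctsf (0.06 ± 0.14) and Ctsc (0.04 ± 0.13), which activates granule serine proteases. The sign of Ctsk, Ctsf and Ctsc turned when wild type replicate 3 was left out, to -0.03, -0.02 and -0.06.

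Several of these genes were highest in the same array. Ctsb gave 12.87, 12.63 and 12.41 in 5XFAD and 12.52, 12.48 and 12.41 in wild type, so that 5XFAD replicates 1 and 2 stood above the wild-type range and replicate 3 at its lower end. 5XFAD replicate 1 had the highest signal of the 6 arrays for 5 of the 9 cysteine cathepsins and for 14 of the 52 lysosomal genes (26.9%, against 14.3% of all genes). This array also had the highest mean of the macrophage markers, with 13 of 15 highest there, and of the skeletal muscle markers, with 7 of 8. The 6 mast cell markers, all positive and 4 of them above the reference, had their highest mean in 5XFAD replicate 2, at 6.95 against 6.74 in replicate 1. Of 8 fibroblast and sclera markers 5 were positive and 3 negative. Their mean was 10.76, 10.72 and 10.41 in 5XFAD and 10.68, 10.59 and 10.37 in wild type. For 5 melanocyte markers, 4 positive and 1 negative, it was 11.72, 11.83 and 11.51 against 11.64, 11.67 and 11.41. Marker mean differences were negative for RPE (-0.41), rod and cone (-0.27), T and NK cell (-0.20), choroidal endothelium (-0.05) and neutrophil (-0.03). All 6 neutrophil markers lay below the reference, and 4 of them were positive. Of 8 T and NK cell markers 4 lay below it. The part of these cell types in the cathepsin signals was not tested. Ctsk, whose gene lies next to Ctss with no protein-coding gene between them, was highest in 5XFAD replicate 2. It gave 8.27, 8.56 and 7.79 against 8.30, 8.18 and 7.61. Like Ctsb, Ctsh, Ctso, Ctsc and Ctsa, it was lowest in replicate 3 of each group.

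The other proteases fell into dim and bright members. Ctsa, a serine carboxypeptidase that also protects beta-galactosidase and neuraminidase in the lysosome, gave 10.25, 10.12 and 9.97 against 10.03, 9.92 and 9.74, with overlapping groups and a difference of 0.21 ± 0.12 (limma, Benjamini-Hochberg adjusted p = 0.88). Ctse, the second aspartic cathepsin, and Ctsg, a protease of neutrophil and mast cell granules, lay below the reference level. Ctsw, a gene of cytotoxic lymphocytes, was barely above it, at 5.73 ± 0.13 in 5XFAD and 5.85 ± 0.07 in wild type.

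The 8 placental cathepsins, a rodent gene cluster used by the trophoblast, all lay below the reference, with levels from 3.06 to 4.46. They neighbour each other on the chromosome with no other protein-coding gene between them. One of them, Cts6, had non-overlapping groups at a level of 3.72 ± 0.06 against 3.87 ± 0.10, and Ctsm, the dimmest of all, had a difference of -0.22 ± 0.11. Over all 22 cathepsins 15 were positive and the median difference was 0.08. It was 0.15 without wild type replicate 2, and 0.04 without 5XFAD replicate 1 or wild type replicate 3.

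The lysosomal membrane genes differed little. Lamp1, a heavily glycosylated protein that coats the inner face of the membrane, gave 11.61, 11.49 and 11.58 against 11.36, 11.44 and 11.50, with a slight overlap. Its difference was 0.12 ± 0.10 (limma, Benjamini-Hochberg adjusted p = 0.93). Scarb2, the carrier that brings beta-glucocerebrosidase to the lysosome, gave 9.29, 9.28 and 9.30 against 9.15, 9.27 and 9.09. The groups did not touch, but wild type replicate 2 lay within 0.01 of the lowest 5XFAD array, and the difference of 0.12 ± 0.10 did not pass (limma, Benjamini-Hochberg adjusted p = 0.93). Lamp2, the membrane receptor of chaperone-mediated autophagy, had a difference of 0.03 ± 0.14, and its 5XFAD arrays ran from 10.15 to 10.66. Lamp3, a gene of mature dendritic cells (-0.005 ± 0.103), and Lamp5, a neuronal gene (0.18 ± 0.12), lay below the reference level. Of the 5 genes 4 were positive, with a median of 0.12 that ran from 0.08 to 0.13 over the alternatives.

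**Figure D3:**
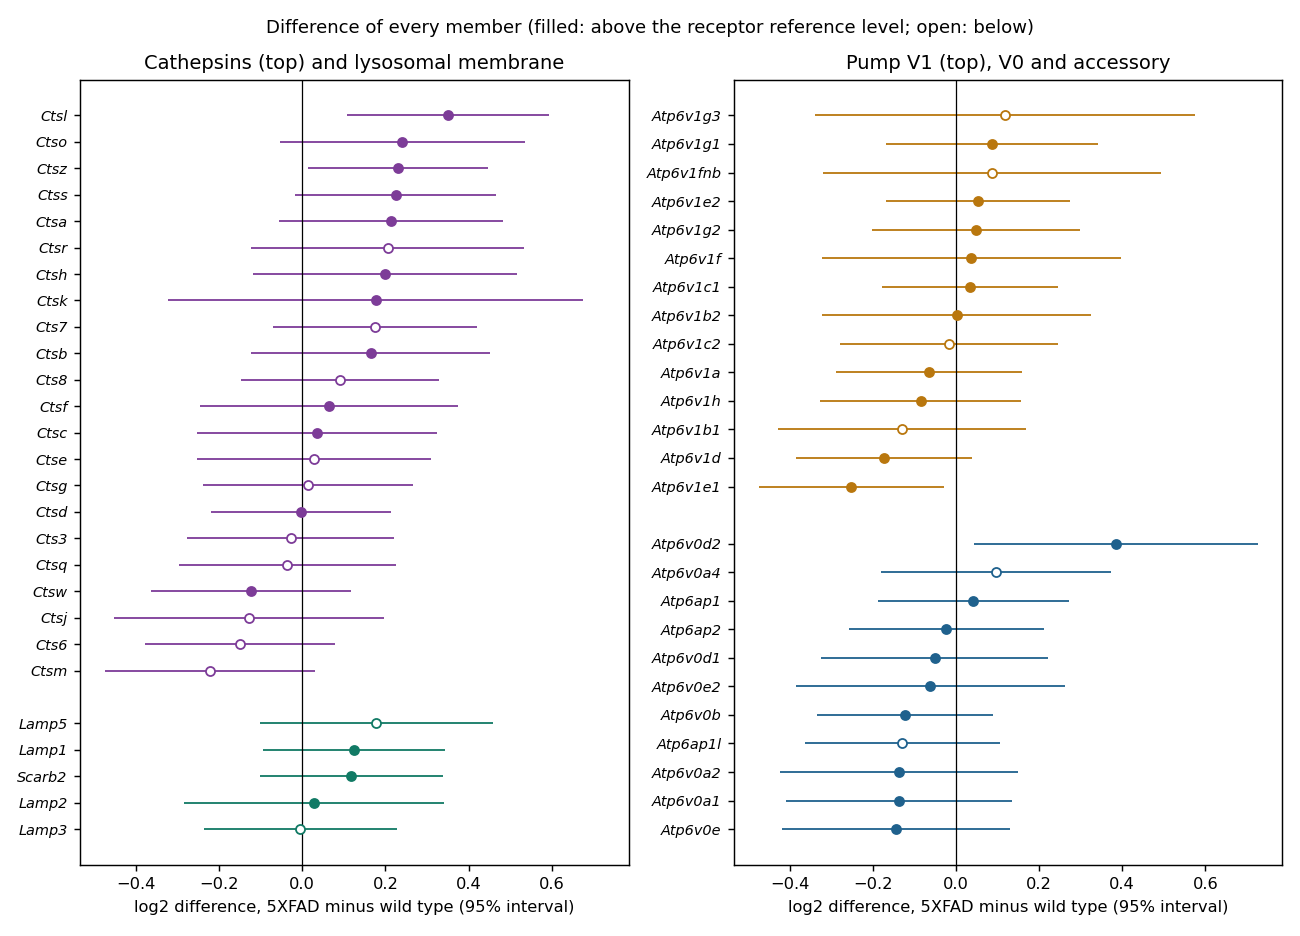
Log2 difference (5XFAD minus wild type) with its 95% interval for each of the 52 genes, cathepsins and membrane genes on the left, V1 and then V0 with accessory genes on the right, filled where the mean signal was above the receptor reference. The intervals of Ctsl, Ctsz and Atp6v0d2 lie above 0 and that of Atp6v1e1 below 0, before any adjustment for the number of genes.

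The proton pump had no shared direction. In V1, the sector that hydrolyses ATP, the peripheral stalk gene Atp6v1e1 gave 9.62, 9.61 and 9.68 in 5XFAD and 9.85, 9.99 and 9.82 in wild type. Each 5XFAD value was lower than each wild-type value, by 0.14 at the nearest, and the difference was -0.25 ± 0.10, a 0.840-fold level (limma, Benjamini-Hochberg adjusted p = 0.74). Atp6v1d, part of the central rotor, gave 8.61, 8.68 and 8.64 against 8.83, 8.86 and 8.76, also apart, with a difference of -0.17 ± 0.09 (limma, Benjamini-Hochberg adjusted p = 0.87). The catalytic subunit gene Atp6v1a was at -0.06 ± 0.10 and the regulatory Atp6v1h at -0.09 ± 0.11. Of their partners in the sector Atp6v1b2, the widely used B subunit, was at 0.002 ± 0.143, with a second, dimmer probe set at -0.06, and Atp6v1g1, which pairs with E in the stalk, was at 0.09 ± 0.11, with its other probe sets at 0.16 and 0.14.

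Of the 14 genes with a V1 symbol 10 lay above the reference. Below it were the tissue-restricted isoforms Atp6v1b1 (-0.13 ± 0.13) and Atp6v1g3 (0.12 ± 0.20), known from acid-secreting kidney cells, Atp6v1c2, and Atp6v1fnb, which is named for lying next to Atp6v1f and is no pump subunit. Over the 14 genes the median was 0.02, with 8 positive. Over the 13 V1 subunits without Atp6v1fnb it was 0.002, with 7 positive.

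In V0, the membrane sector, Atp6v0d2 had the largest positive difference of the pump. This d subunit isoform, known from osteoclasts, macrophages and kidney, gave 10.12, 9.79 and 9.61 in 5XFAD and 9.67, 9.33 and 9.37 in wild type. The groups overlapped, as 5XFAD replicate 3 lay below wild type replicate 1, and 5XFAD replicate 1 was the highest array. The difference of 0.38 ± 0.15 did not pass (limma, Benjamini-Hochberg adjusted p = 0.74), and it ran from 0.25 to 0.50 over the alternatives. The ubiquitous isoform Atp6v0d1 was at -0.05 ± 0.12.

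The other V0 genes above the reference all had negative differences, none of them called. Atp6v0b, a proton-carrying ring subunit, gave 9.77, 9.79 and 9.69 against 9.86, 9.91 and 9.85 and did not overlap, with a difference of -0.12 ± 0.09 (limma, Benjamini-Hochberg adjusted p = 0.92). Atp6v0e was at -0.14 ± 0.12, and the a subunit isoforms, which steer the pump to its compartment, were at -0.14 ± 0.12 for Atp6v0a1 and -0.14 ± 0.13 for Atp6v0a2. The third a isoform, the osteoclast and lysosome gene Tcirg1, falls outside the symbol rule. It gave 8.06, 7.83 and 8.02 against 7.77, 7.79 and 7.70, apart and higher, with a difference of 0.22 ± 0.10 (limma, Benjamini-Hochberg adjusted p = 0.82).

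Of the accessory genes Atp6ap1, an assembly factor, was at 0.04 ± 0.10 and the prorenin receptor gene Atp6ap2 at -0.02 ± 0.10, while Atp6ap1l lay below the reference (-0.13 ± 0.10). Over the 25 pump genes, with Atp6v1fnb counted by its symbol, 11 were positive, the median was -0.02, and the lowest adjusted limma p (Benjamini-Hochberg) was 0.74. Without 5XFAD replicate 3 the median was 0.01. It was -0.05 without either of the other 5XFAD arrays or without wild type replicate 1, and -0.06 without wild type replicate 3. The c subunit gene Atp6v0c was not analysed here.

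**Figure D4:**
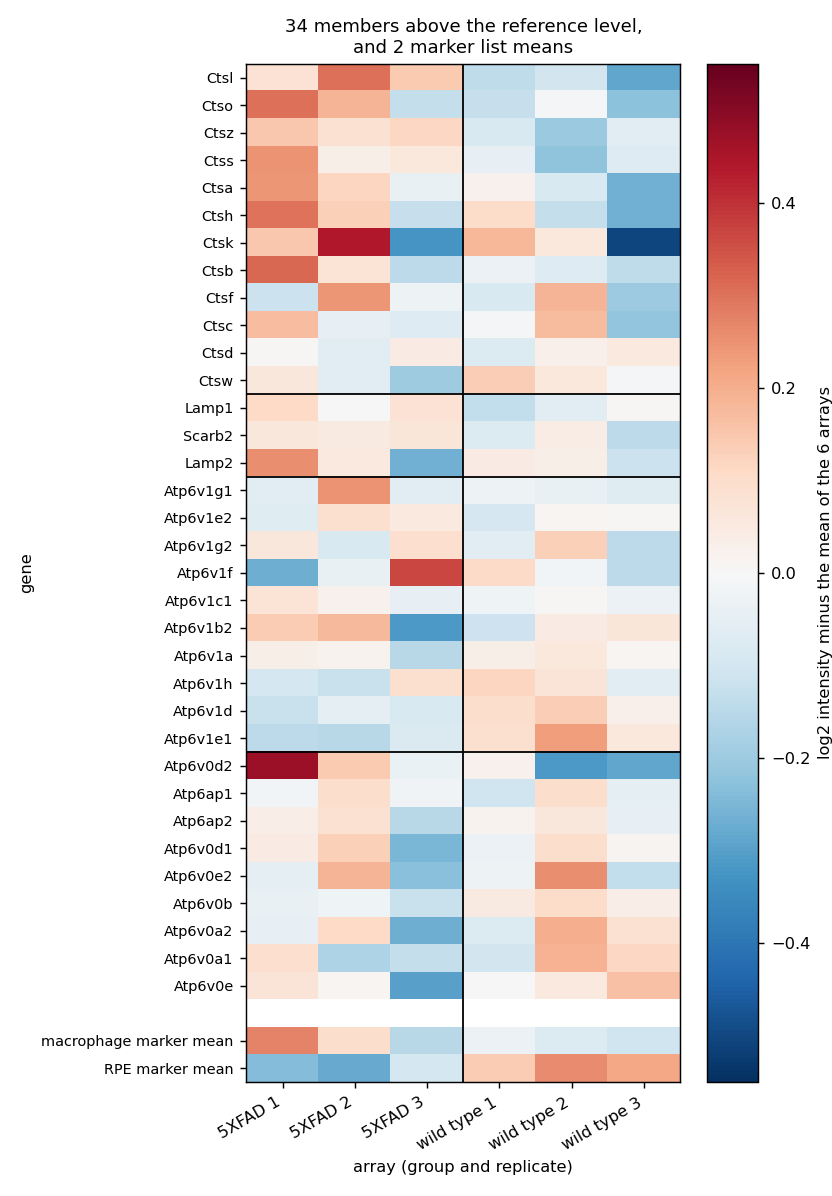
Log2 intensity minus the mean of the 6 arrays (colour, red above and blue below) for the 34 lysosomal genes above the receptor reference, in rows by class, and for the means of 15 macrophage and 12 RPE markers in the bottom rows. Columns are arrays. The left block of the cathepsins is mostly red in 5XFAD replicates 1 and 2, as is the macrophage row, and the pump rows show no common split between the groups.

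The lysosomal genes outside the symbol rule were described from lists by function. Of 36 measured lysosomal hydrolases and their activators, 27 were positive with a median of 0.11, and 0 passed in limma after adjustment (lowest Benjamini-Hochberg adjusted p = 0.64). At an unadjusted limma p under 0.05 there were 6 higher and 1 lower (19.4% in either direction, against 6.28% of all genes, and 75.0% positive against 47.2%). Of the 36 genes, 17 were highest in 5XFAD replicate 1 (47.2%, against 14.3% of all genes). The hydrolase mean was 8.90, 8.87 and 8.70 in 5XFAD replicates 1, 2 and 3, where the surface epithelium mean was 6.28, 6.74 and 7.14. The macrophage, mast cell, skeletal muscle, fibroblast and melanocyte marker means were, like that of surface epithelium, higher in 5XFAD. Those of the other marker lists were lower, with differences from -0.41 for RPE to -0.03 for neutrophil markers, which all lay below the reference. The part of these cell types in the hydrolase signals was not tested. The count of 6 was 1 without 5XFAD replicate 1, 2 without 5XFAD replicate 2 or wild type replicate 3 and 3 without wild type replicate 2, and the count of 1 was 0 without 5XFAD replicate 3. Galc, which degrades the myelin lipid galactosylceramide, gave 7.78, 7.66 and 7.59 against 7.43, 7.39 and 7.22. Lgmn, the asparaginyl endopeptidase that processes several cathepsins to their mature forms, gave 9.78, 9.74 and 9.65 against 9.46, 9.34 and 9.47. Both were apart and higher in 5XFAD, by 0.33 ± 0.11 and 0.30 ± 0.10.

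Of 27 other membrane genes of the lysosome 18 were positive (66.7%, median 0.07), with 0 higher and 1 lower at an unadjusted limma p under 0.05 (1 of 27, against 6.28% of all genes). That gene was Ostm1, the partner subunit of the chloride transporter ClC-7, with 7.66, 7.73 and 7.81 against 7.94, 8.19 and 8.12, a difference of -0.35 ± 0.11 (limma, Benjamini-Hochberg adjusted p = 0.60). Tmem106b was at -0.22 ± 0.11. Of 9 genes of sorting to the lysosome Sorl1, a sorting receptor that also binds the amyloid precursor protein, was the 1 at an unadjusted p under 0.05 (11.1%, against 6.28% of all genes), and it was lower. It gave 8.04, 7.85 and 8.12 in 5XFAD and 8.26, 8.50 and 8.49 in wild type, a difference of -0.41 ± 0.12 with the groups apart (limma, Benjamini-Hochberg adjusted p = 0.53). Cln6 was at 0.24 ± 0.11.

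Of 9 cathepsin inhibitors of the cystatin and stefin families 3 lay above the reference, and the largest difference was that of a gene below it, Stfa1, at 5.40, 5.60 and 5.88 against 5.21, 4.63 and 4.73. The difference of 0.77 ± 0.17 did not pass (limma, Benjamini-Hochberg adjusted p = 0.36), and it has close paralogs, among them Stfa2l1 (0.26 ± 0.14), whose signals may be shared. Of 18 genes of the TFEB family and of nutrient sensing at the lysosome 7 were positive (38.9%, median -0.05), with 1 at an unadjusted limma p under 0.05 (5.56%, against 6.28% of all genes): Fnip2, a folliculin partner, at 0.27 ± 0.12. The TFEB relative Tfec, expressed in macrophages, was at 0.30 ± 0.17. Tfeb itself was at -0.0005 ± 0.12, and its relatives Tfe3 and Mitf were at -0.13 ± 0.10 and -0.19 ± 0.14. Of 12 pump partners and assembly factors 6 were positive (against 47.2% of all genes, median 0.00) and 0 were called (limma, lowest Benjamini-Hochberg adjusted p = 0.82, 0 at an unadjusted p under 0.05). After Tcirg1 the smallest p was that of Rogdi (-0.21 ± 0.11), a component of the complex that joins V1 to V0.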

How the data were processed

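The authors deposited log2 intensities per probe set from Affymetrix whole-transcript arrays, 1 array per sample. Affymetrix Expression Console 1.1 with RMA produced them, per the submitters' processing notes. Build, filters and pooling are not given in the sources used. Values were used as deposited. The platform annotation gave 23521 of 33793 probe sets 1 symbol, 1814 several and 8458 none, and no gene was named from several. The brightest probe set over the 6 arrays was kept for each of 22180 genes. All 52 lysosomal genes matched RefSeq by Entrez identifier.

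Genotypes were compared by limma 3.58.1 (R 4.3.3) with lmFit and eBayes, two-sided and without covariates. P-values were adjusted by Benjamini-Hochberg across the 22180 genes, with 0.05 as threshold, and the fit was tested on simulated data. Members and lists were chosen with earlier results of these data known. Named were Ctsd, Ctss, members at an unadjusted p under 0.05, per class the 4 of smallest p, the brightest and the dimmest, and per pathway list the 2 of smallest p with Tcirg1. Other names with values were chosen after these were seen. Signals of different probe sets do not compare transcript amounts. The number of arrays limits the precision.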

Additional observations from a re-analysis of the deposited data

How the results depend on the processing

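No lysosomal gene passed the adjusted limma threshold in any of the 14 alternatives: the replicate block, leaving out the dimmest 30% or 50% of genes, quantile normalization repeated, arrays centred on medians, a trended robust prior, weighted arrays, averaged probe sets, and each array left out. The labels do not say whether replicate numbers pair the samples. Over all genes, same-numbered arrays correlated in their deviations from the group means at -0.06, -0.05 and 0.13. With 3 arrays per group these values cannot exclude a pairing. The mean of the 9 cysteine cathepsins was lowest in replicate 3 of each group, at 9.77 in 5XFAD and 9.60 in wild type. With the number as a block the count of lower genes at an unadjusted p under 0.05 was 0 in place of 1. With arrays left out it ran from 0 to 1, and the count of higher genes from 1 to 4. The cathepsin median of 0.08 was 0.18 and 0.20 without the dimmest 30% and 50% of genes, where fewer members were tested, and ran from 0.041 to 0.15 with arrays left out. The pump median of -0.02 was -0.056 and -0.061 under these filters and ran from -0.057 to 0.012 with arrays left out. Ctsd turned sign, to 0.015 with weighted arrays and within -0.042 to 0.025 with arrays left out. Lamp3 turned to 0.015 after quantile normalization. The sign of these genes also turned within the range over arrays left out: Atp6ap1 (-0.0021 to 0.10), Atp6v0d1 (-0.13 to 0.062), Atp6v1g3 (-0.11 to 0.35), Ctsc (-0.065 to 0.13), Ctsf (-0.041 to 0.17), Ctsk (-0.032 to 0.38), Lamp2 (-0.091 to 0.17) and Lamp3 (-0.050 to 0.054). The cause of these shifts was not tested. The change in the Ctss to Ctsd ratio kept its sign in the 9 alternatives that alter its values, from 0.16 to 0.30, and Ctss itself ran from 0.16 to 0.26 over all 14. Hydrolases higher at an unadjusted p under 0.05 numbered 3 after centring on medians, an analysis added after seeing the data.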
